A study of Homo sapiens with 6 samples.

Results

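Weakly open promoters were the 584 autosomal regions that were the most accessible region at the start of a protein-coding gene and yet had a mean signal of only 10 to under 50. They were taken from 108542 regions of open chromatin in EndoC-βH3 cells, of which 105696 lay on the 22 autosomes. For each protein-coding gene, the region of highest mean signal among those overlapping 2 kb on either side of its GENCODE start sites was taken, and a region was kept only if it was the best one of every gene that it touched. The mean signal is the authors' mean of normalised read counts over all libraries, so this value chose the members and is given for them as a description without a test. In the same way the rule gave 13052 promoter regions of any mean signal, and the weakly open ones were 4.47% of them (95% Wilson interval 4.13 to 4.84).

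EndoC-βH3 is a human beta cell line, derived from fetal pancreas and immortalised by telomerase and the SV40 large T antigen, which a tamoxifen-activated Cre recombinase can remove. ATAC-seq, in which a transposase cuts and tags open DNA, was run on 3 libraries of non-senescent cells, the untreated control, and on 3 libraries of senescent cells, in which 4-hydroxytamoxifen given for 3 weeks had removed the immortalising genes. All libraries came from this 1 line, labelled wild type. The values used here pool both groups, so every level below is an average over non-senescent and senescent cells, the spread between libraries is not known, and no difference between the groups is given.

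A promoter is the DNA around the start site of a gene, where transcription factors and RNA polymerase assemble. At active genes it is kept free of nucleosomes and is therefore open to the transposase. Many promoters, above all those of genes that every cell uses, lie in CpG islands, stretches in which the dinucleotide CpG has not been lost and which are usually open whether or not the gene is strongly transcribed. Promoters of genes used by 1 tissue are more often poor in CpG and open only where the factors of that tissue act.

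Promoter sequences of 6 weakly open promoters are shown because they hold both sequence types that the class contains. They are RefSeq sequences of build GRCh38.p14, from 250 bases before to 50 bases after the RefSeq start site, with CpG dinucleotides and a TATAAA box in the 50 bases before the start in capitals. They were picked by mean signal among members of the gene lists whose region covers the start. RefSeq promoters were at hand for 413 of the 597 genes of the class. KCNRG (chr13:50015194-50015493 on the plus strand), PCDHA10 (chr5:140855647-140855946 on the plus strand) and MYOF (chr10:93482285-93482584 on the minus strand) fell below a limit of 50% GC in this window.
KCNRG: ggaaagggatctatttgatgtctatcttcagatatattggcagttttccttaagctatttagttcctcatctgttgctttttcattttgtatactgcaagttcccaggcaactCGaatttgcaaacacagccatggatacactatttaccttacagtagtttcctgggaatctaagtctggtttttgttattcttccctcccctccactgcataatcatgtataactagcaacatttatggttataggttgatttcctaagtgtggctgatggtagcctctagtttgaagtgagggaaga
PCDHA10: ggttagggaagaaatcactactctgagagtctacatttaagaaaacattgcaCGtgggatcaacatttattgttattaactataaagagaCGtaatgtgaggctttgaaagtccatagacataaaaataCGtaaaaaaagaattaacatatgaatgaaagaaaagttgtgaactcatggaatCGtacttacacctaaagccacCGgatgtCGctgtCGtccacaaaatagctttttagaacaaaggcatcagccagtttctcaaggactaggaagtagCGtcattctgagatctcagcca
MYOF: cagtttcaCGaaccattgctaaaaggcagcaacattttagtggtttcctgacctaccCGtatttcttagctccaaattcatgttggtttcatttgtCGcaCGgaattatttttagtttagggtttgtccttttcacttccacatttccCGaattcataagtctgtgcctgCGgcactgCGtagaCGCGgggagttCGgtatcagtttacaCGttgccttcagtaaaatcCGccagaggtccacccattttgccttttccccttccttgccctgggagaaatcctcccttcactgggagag
KCNRG had a single CpG in 300 bases and a ratio of observed to expected CpG of 0.0892. PCDHA10 had 8 and MYOF 12, with ratios of 0.769 and 0.747, so that these promoters were poor in GC and not in CpG for their composition. Centred on the start, as used below, the window of MYOF had 52.0% GC and counted as CpG-rich. SLC30A2 (chr1:26046069-26046368 on the minus strand), KCNF1 (chr2:10911684-10911983 on the plus strand) and SLC5A7 (chr2:107986274-107986573 on the plus strand) were CpG-rich.
SLC30A2: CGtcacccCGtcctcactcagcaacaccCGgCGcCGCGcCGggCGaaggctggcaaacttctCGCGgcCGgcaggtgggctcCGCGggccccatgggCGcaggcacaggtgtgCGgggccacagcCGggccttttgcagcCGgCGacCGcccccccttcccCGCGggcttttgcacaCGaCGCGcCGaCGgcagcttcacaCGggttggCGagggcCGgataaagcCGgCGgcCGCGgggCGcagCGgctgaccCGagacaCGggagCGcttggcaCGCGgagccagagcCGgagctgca
KCNF1: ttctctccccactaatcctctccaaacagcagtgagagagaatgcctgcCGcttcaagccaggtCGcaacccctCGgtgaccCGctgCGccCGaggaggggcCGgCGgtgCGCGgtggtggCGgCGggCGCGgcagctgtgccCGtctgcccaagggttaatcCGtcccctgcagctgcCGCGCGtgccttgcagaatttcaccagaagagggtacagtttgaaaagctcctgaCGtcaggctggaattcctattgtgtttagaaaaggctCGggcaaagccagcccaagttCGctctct
SLC5A7: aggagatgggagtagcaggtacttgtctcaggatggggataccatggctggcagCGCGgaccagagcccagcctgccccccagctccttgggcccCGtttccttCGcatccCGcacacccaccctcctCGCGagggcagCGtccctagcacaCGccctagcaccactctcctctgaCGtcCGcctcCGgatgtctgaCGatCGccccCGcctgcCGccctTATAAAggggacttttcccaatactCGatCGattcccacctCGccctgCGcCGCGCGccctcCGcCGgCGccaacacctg
SLC30A2, a zinc transporter, had 41 CpGs and a GC content of 74.7%. KCNF1, a potassium channel subunit, had 22 CpGs. SLC5A7, the choline transporter of cholinergic neurons, had 26 CpGs and a TATAAA box that began 30 bases before the start. The mean signals of these 6 regions lay between 43.6 for MYOF and 49.9 for KCNRG, which is the upper end of the class.

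The class forms the lower tail of promoter accessibility. Of the 18773 autosomal protein-coding genes, 10423 (55.5%) had a best region of 500 or over, 3922 (20.9%) one of 50 to under 500, 609 (3.24%) one of 10 to under 50, 19 one under 10, and 3800 (20.2%) had no region in their windows. Genes without any region thus outnumbered genes with a weak one. Within the class the mean signal had a median of 31.2, with quartiles of 21.7 and 40.6. At the lower bound the nearest members were AVIL with 10.40 and WTIP with 10.46, and the nearest regions left out were HYAL1 with 9.88 and CLPSL1 with 9.81. At the upper bound the nearest members were TMEM269 with 49.94 and KCNRG with 49.87, and the nearest regions left out were MSANTD1 with 50.04 and R3HDM4 with 50.07. No gap in the distribution marked either bound.

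**Figure D1:**
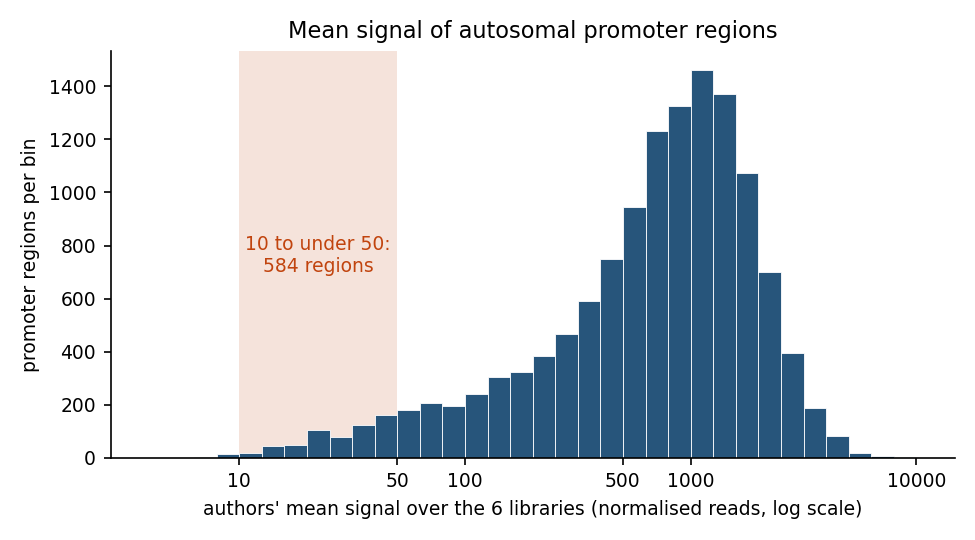
Number of autosomal promoter regions (vertical axis) by the authors' mean signal over the 6 libraries (horizontal axis, log scale, 0.1 log10 units per bin), with the range of the weakly open class shaded. The 584 shaded regions lie on the left flank of a single peak near 1000, with no gap at 10 or 50.

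Weakly open promoters often lay beside the start site and not over it. A coding start site lay inside 229 of 584 weakly open regions (39.2%, Wilson interval 35.3 to 43.2), against 11021 of 12449 promoter regions with a mean signal of 50 or over (88.5%). The difference was -49.3 percentage points (95% Newcombe interval -53.2 to -45.3). Regions are not replicates of a condition, so these intervals cover counting error only. Counting start sites of every GENCODE transcript, noncoding ones included, the shares were 45.5% and 90.6%. The start of the Ensembl canonical transcript, the one chosen to represent a gene, was inside 28.1% of weakly open and 82.0% of stronger regions. It was within 2 kb of 488 of the 584, and the other regions lay in the windows of other starts, not always over them.

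The middle of a weakly open region was a median of 351 bp from the nearest coding start, with quartiles of 112 and 1064, against a median of 135 bp for stronger regions. In 41.4% of them that distance was over 500 bp, against 13.9%. The middle was downstream of the start in 60.3% of the class and in 55.7% of stronger regions, a difference of 4.57 points (0.450 to 8.55). By annotation, the middle lay in an intron in 39.2% of weakly open regions, between genes in 18.7%, in a 5′ UTR in 17.6%, in coding sequence in 15.4% and in a 3′ UTR in 2.23%. The corresponding shares of stronger regions were 29.6%, 17.3%, 31.3%, 13.1% and 0.442%. The largest of these differences was the lower share in 5′ UTRs (-13.7 points, -16.7 to -10.3). Only 13 weakly open regions (2.23%) served more than 1 gene, against 12.2% of stronger ones, which include the shared promoters of divergent gene pairs. This direction is partly built in, since a weak region shared with a gene that had a stronger region was dropped. Without that demand the class held 596 regions. A weakly open region was the only region in the windows of its genes in 85.8% of cases, against 66.9% of the stronger regions. The rule itself favours this direction, since any further region in those windows had to be weaker than the member.

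**Figure D2:**
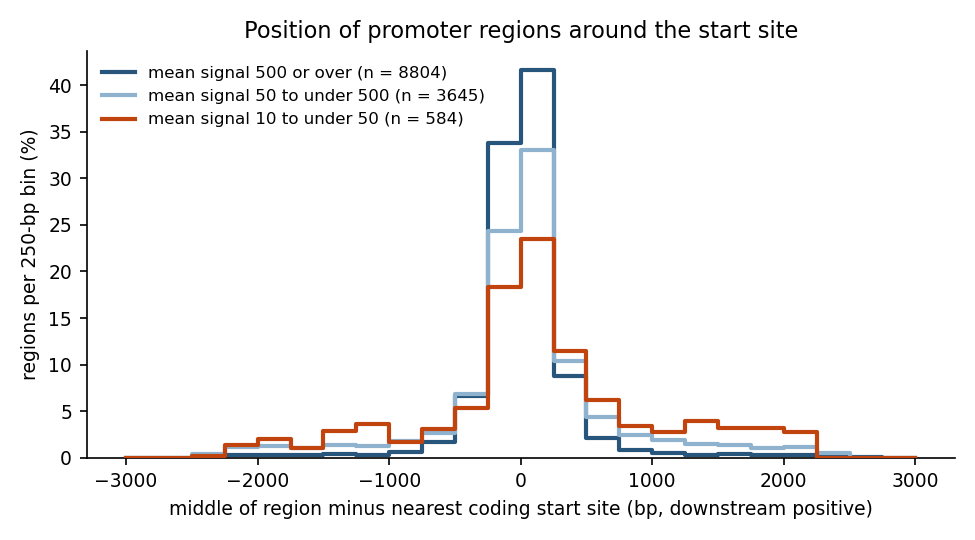
Share of promoter regions (vertical axis, % per 250-bp bin) by the distance of the region's middle from the nearest coding start site (horizontal axis, bp), for weakly open regions and for the 2 stronger classes. The central peak is lowest and the flanks beyond 500 bp are highest for the 584 weakly open regions.

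Width moved with these differences. Weakly open regions had a median width of 346 bp (quartiles 267 and 496) and stronger ones of 1164 bp, and the mean signal is a sum over the width. Both come from the same reads and are not independent. Per 500 bp of region the median signal was 37.8 against 349, which is the value that chose the members divided by width. Among regions under 500 bp wide, which were 75.9% of the class and 3.14% of the stronger regions, a start site was covered by 32.7% of 443 weakly open and by 44% of 391 stronger regions, a difference of -11.3 points (-17.8 to -4.65). From 500 to under 1000 bp, 58.5% of 135 regions covered a start, against 79.3% of 3743 stronger regions, and of the 6 weakly open regions of 1000 bp or more 5 did (83.3%), against 94.8%.

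Among the members themselves, signal went with width and not with CpG content, over the narrow range of signal that chose them. Signal is a sum over the width, so the link with width is partly built in. Spearman's rho across the 584 regions was 0.481 between mean signal and width, -0.0183 between mean signal and the ratio of observed to expected CpG, and -0.0141 between mean signal and the distance of the middle from the start, upstream or downstream. These describe regions read in the same libraries. The share that covered a start was 23.7% of 118 regions with a signal of 10 to under 20, 32.9% of 161 from 20, 46.7% of 152 from 30 and 50.3% of 153 from 40, while the median width went from 256 to 468 bp. The widest member, at MUC2, a mucin gene of the intestine, spanned 1878 bp (chr11:1097275-1099153) with a mean signal of 25.1, or only 6.67 per 500 bp. The next were CBS, MDFI, FAM43B and EN2, with 1076 to 1165 bp and mean signals of 44.6 to 48.5. The most concentrated signal was at MUCL1 (176 bp, 127 per 500 bp), followed by IFNA16, MMP9, INSL6 and HPX with 104 to 114 per 500 bp. Members were found on every autosome, from 2.48% of the promoter regions of chromosome 9 to 8.33% of those of chromosome 21 (11 of 132, Wilson interval 4.72 to 14.3).

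The class held both CpG-rich and CpG-poor promoters. A promoter was taken as CpG-rich where the 300 bases around the start site nearest to the region had a GC content of at least 50% and a ratio of observed to expected CpG of at least 0.6, and as CpG-poor where either limit was missed. By this measure 253 of 584 weakly open promoters were CpG-rich (43.3%, 39.4 to 47.4), against 83.6% of stronger ones, a difference of -40.3 points (-44.3 to -36.2). Among the stronger ones the share was 70.8% at a signal of 50 to under 500 and 88.9% at 500 or over. The median ratio was 0.524 against 0.853, and the median GC content 63.2% against 68.7%. The values of the class spread over the whole scale, with quartiles of 0.280 and 0.836.

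With wide regions left out the CpG difference was not detectable. Among regions under 500 bp wide, 35.9% of weakly open and 39.4% of stronger promoters were CpG-rich, a difference of -3.49 points with an interval from -10.1 to 3.07, although the median signals of these subsets were 26.2 and 101. This comparison was added after the widths had been seen, and it caps width without making it equal, since 204 of the 443 weakly open and 61 of the 391 stronger regions were under 300 bp.  From 500 to under 1000 bp the shares were 65.9% of 135 and 73.3% of 3743. In contrast, among regions of any width that covered a start, 54.6% of the 229 weakly open and 88.7% of the stronger ones were CpG-rich.

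**Figure D3:**
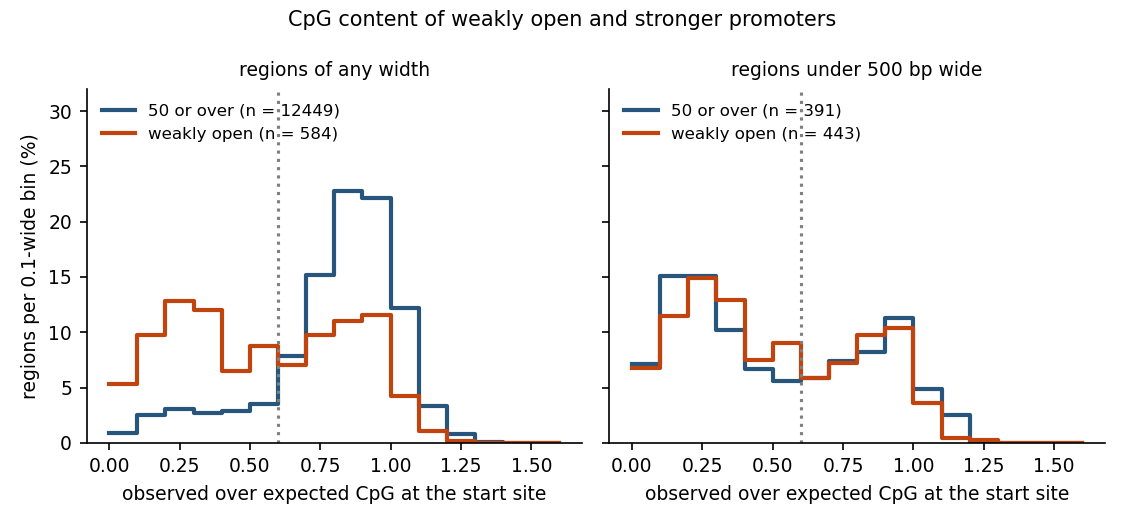
Share of promoter regions (vertical axis, % per bin of 0.1) by the ratio of observed to expected CpG in 300 bases around the start site (horizontal axis), for weakly open promoters and those with a mean signal of 50 or over. The dotted line marks 0.6. With regions of any width (left) the stronger promoters gather near 0.9 and the weakly open ones on both sides of the line, while among regions under 500 bp wide (right) both groups have a similar double-peaked shape.

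CpG-rich and CpG-poor members had the same median signal, 31.4 and 31.2, but differed in shape and place. CpG-rich members were wider, with a median of 416 against 324 bp, and lay closer to the start, with a median distance of 247 against 570 bp. They covered a start in 125 of 253 cases (49.4%), against 104 of 331 (31.4%), a difference of 18.0 points (9.97 to 25.7). Their median distance to the next region with a signal of 500 or over was 68.9 kb, against 45.5 kb for CpG-poor members.

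Short sequence motifs were counted in 300 bases around the middle of each region, on both strands, and set beside the share among the other 12468 promoter regions. Of 17 motifs, 10 differed in share with an interval that left out 0. Motifs typical of broadly active promoters were found less often. The GC box GGGCGG, bound by SP factors, was in 37.8% of weakly open and 65.1% of other promoter regions (-27.2 points, -31.1 to -23.1). CCAAT, bound by NF-Y, was in 17.6% and 25.2%. The ETS motif CCGGAAG was in 4.28% and 12.6% (-8.31 points, -9.80 to -6.27), and the NRF1 motif GCGCATGC in 1.03% and 2.90%. Over all 13052 promoter regions these shares were 63.8%, 24.8%, 12.2% and 2.82%.

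Several motifs of tissue-restricted factors, the AP-1 site and the TATA box were found more often. CAGATGG, a NEUROD site, was in 8.90% of weakly open and 3.85% of other regions (5.05 points, 2.97 to 7.66). TATAAA was in 7.02% and 3.26%, and TGANTCA, the AP-1 site, in 6.85% and 3.11%. TGTTTAC, a FOXA site, was in 4.97% and 2.25%, TTAATNATT, an HNF1 site, in 2.57% and 0.529%, and TTCAGCACC, the left part of the site of the neuronal repressor REST, in 1.37% and 0.481%. The shares over all 13052 regions were 4.08%, 3.42%, 3.28%, 2.38%, 0.621% and 0.521%. For 7 motifs the interval held 0. These were CACGTG (6.68% against 6.91%), TGACGTCA (0.856% against 1.78%), GTTGCCAT (0.856% against 0.906%), CAGNGGGC (13.2% against 14.5%), TGCTGAC (4.62% against 3.59%), CTAATTA (0.514% against 0.569%) and AGATAAG (1.71% against 1.21%), for E-box, CRE, RFX, CTCF, MAF, homeodomain and GATA factors. Their shares over all regions were 6.90%, 1.74%, 0.904%, 14.4%, 3.64%, 0.567% and 1.23%. A match of these letters is a description of the sequence and not a binding site. No motif has the letters of another, though windows can hold several.

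Several motif differences were smaller within a CpG class. Among CpG-poor promoters, NEUROD matches were in 12.7% of weakly open and 9.85% of other regions, AP-1 matches in 8.16% and 7.80%, and FOXA matches in 7.85% and 5.27%, each with an interval that held 0. HNF1 matches (4.53% against 2.15%, difference 2.39 points, 0.478 to 5.25) and the left part of the REST site (1.81% against 0.341%, difference 1.47 points, 0.427 to 3.56) remained more frequent there. The REST value rests on 6 of 331 and 7 of 2051 regions. With the window on the start, the HNF1 difference was 1.06 points (-0.376 to 3.47) and the REST difference -0.429 points (-0.963 to 0.989). With the window on the middle, the GC box stayed less frequent in both classes, with 60.9% against 71.7% of CpG-rich (-10.8 points, -17.0 to -4.96) and 20.2% against 31.3% of CpG-poor promoters (-11.1 points, -15.5 to -6.0). With the window on the start, both intervals held 0. The shares were then 80.6% against 79.6% of CpG-rich (0.993 points, -4.37 to 5.46) and 26.6% against 29.5% of CpG-poor promoters (-2.91 points, -7.81 to 2.46). Among CpG-rich promoters whose region covers a start, with the window on that start, the GC box was in 76.8% of 125 weakly open and 79.4% of 9776 other promoters (-2.58 points, -10.7 to 4.01). CCAAT was in 14.4% against 30% (-15.6 points, -20.7 to -8.28) and the ETS motif in 6.40% against 18.5% (-12.1 points, -15.3 to -6.32). TATAAA was in 10.4% against 2.63% and AP-1 in 6.40% against 2.19%. In the 62 and 91 of these that were under 500 bp wide, the ETS shares were 11.3% and 15.4% (-4.09 points, -14.6 to 7.76) and the CCAAT shares 14.5% and 25.3% (-10.8 points, -22.6 to 2.59), which cannot show a difference at this number. TATAAA was in 8.06% and 2.20% of these (5.87 points, -1.26 to 15.5), an interval that also held 0. AP-1 was in 5 of 62 against 0 of 91 (8.06 points, 1.96 to 17.5).

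**Figure D4:**
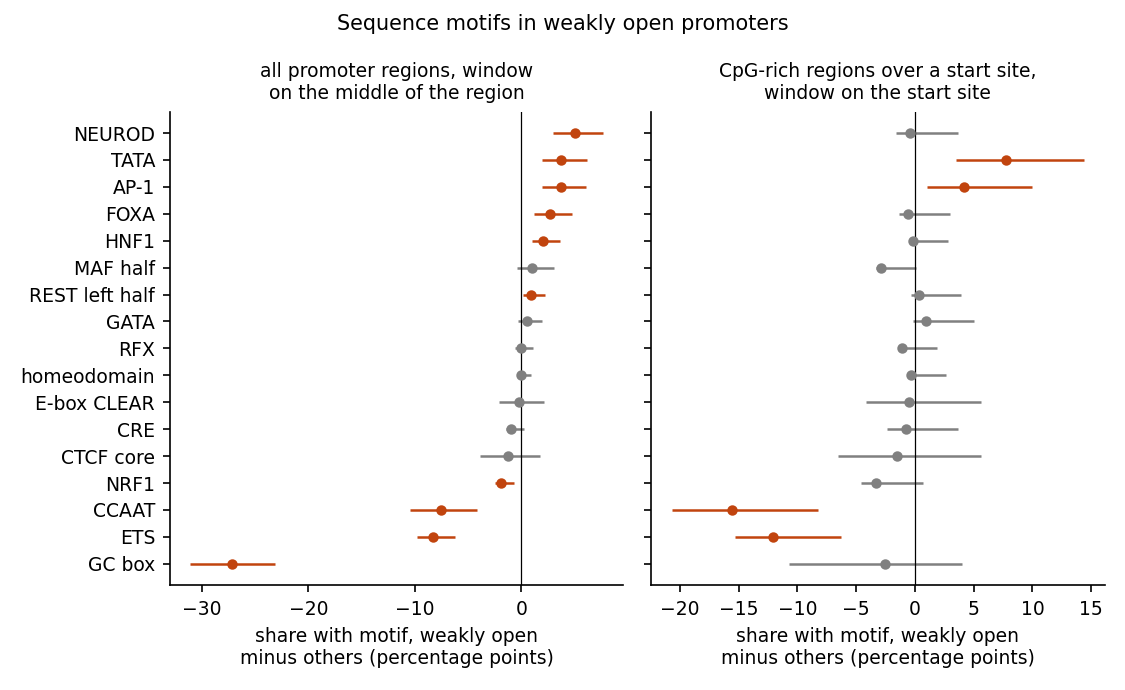
Difference in the share of promoters with a motif, weakly open minus other promoters (horizontal axis, percentage points, with 95% Newcombe intervals), for each of 17 motifs (vertical axis); coloured points have an interval that leaves out 0. Over all regions (left) the GC box, ETS and CCAAT motifs lie lowest and NEUROD highest, and in CpG-rich regions over a start site (right) CCAAT and ETS remain below 0, and TATA and AP-1 above it.

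A TATA box in its usual place was more frequent in the class. Among regions covering a start, TATAAA in sense within the 50 bases before it was found in 14 of 229 weakly open promoters (6.11%) and in 171 of 11021 stronger ones (1.55%), a difference of 4.56 points (2.11 to 8.45). Within CpG-poor promoters the shares were 4.81% and 4.01%, and the difference of 0.801 points had an interval from -2.20 to 6.83. Within CpG-rich promoters they were 7.20% of 125 and 1.24% of 9773, and SLC5A7, printed above, is one of these 9.

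Some weak signals stood on duplicated DNA. Of the 584 regions, 31 (5.31%) had a second copy elsewhere in the genome with at least 95% identity over at least 80% of the length, against 1.86% of stronger regions (difference 3.44 points, 1.88 to 5.58). The search placed 562 of the 584 regions and 12439 of the 12449 stronger ones at their own position. Copies of the others may have been missed, so the count of 31 may be too low. Several genes stood among these 31. These included CBS, the enzyme that makes cystathionine, with 44.6, the pancreatic elastase gene CELA3A with 43.2, the interferon gene IFNA17 with 35.5, the mast cell tryptase gene TPSAB1 with 34.9 and the alpha globin gene HBA2 with 15.4. How reads that fit more than 1 place were counted is not given in the sources used here, so the level at these genes is uncertain. Without these 31 regions the shares above changed little (start covered 39.6%, CpG-rich 44.8%).

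Nearly all beta cell genes lay above the class, which by itself does not show the labelled cell type. Of 20 beta cell genes, 19 had a best region above the class, from 83.6 at ADCYAP1 to 7894 at INS, the insulin gene, with 2900 at PDX1. The exception was DLK1, an imprinted gene used as a beta cell marker, with 27.2 in a CpG-rich region (chr14:100726913-100727203). That region covered an alternative start, with the canonical one 22 bp away. At 500 or over there were 12 of the 20 beta cell genes, against 55.5% of all autosomal protein-coding genes and 10 of 20 neuronal genes. None of the 20 beta cell genes lacked a region, against 20.2% of all genes and none of 15 genes of other islet endocrine cells. None of these 15 genes and none of 19 housekeeping genes was in the class, and all 19 housekeeping genes had 500 or over. Over all genes, counted by 18765 symbols, 3.18% were in the class, which is the value to set beside the shares below. Each list was chosen with earlier results of these data known, and none of its shares was tested.

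Genes that mark other cell types or lineages had a larger share in the class than genes at large, though most of them had no region or a stronger one. The set took in transcription factors of other tissues, listed further below, and the genes of other islet endocrine cells. Of 227 such markers, 22 (9.69%, Wilson interval 6.49 to 14.2) were weakly open, 109 had no region, 56 a region of 50 to under 500 and 38 one of 500 or over. Duct cells, the lining cells of the pancreas that share an origin with beta cells, contributed 3 of 12. Their regions were at TFF1 (46.8), a trefoil peptide, SPP1 (45.9), which encodes osteopontin, and KRT7 (37.4), a keratin of duct epithelium. Only that of KRT7 covered the start and was CpG-rich, while the middle of that of SPP1 lay at -1966 bp from the start, negative values being upstream. Of 20 acinar cell genes, whose products are digestive enzymes, 2 were members. They were CELA3A (43.2), at -2070 bp and with the second copy named above, and the lipase-related PNLIPRP1 (25.9), over its start. A further 12 acinar genes had no region.

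Neuronal genes contributed 4 of 20, while 10 of the 20 had 500 or over. The members included SLC17A6 (41.2), a vesicular glutamate transporter, GRIN2B (26.2), a glutamate receptor subunit, and NEFH (16.1), a neurofilament. Of these, that of NEFH alone covered a coding start, though that of GRIN2B covered the start of another GENCODE transcript. The region of GRIN2B lay 371340 bp from the canonical start. The receptor families for GABA, glutamate, acetylcholine and serotonin together had 7 of 71 genes in the class (9.86%, 4.86 to 19.0), led by GABRG3 (45.4), GRIN2C (39.2), HTR6 (37.6) and HTR4 (32.2). The region of GABRG3 lay 299084 bp from the canonical start. Of 94 potassium channel genes 5 were members, with KCNRG (49.9), a regulator of these channels, KCNF1 (46.4) and KCNT1 (37.1) among the highest.

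The 22 members counted above took in transcription factors that specify other tissues. Of 25 such factors, 6 were in the class (24.0%, 11.5 to 43.4) and 5 of the 6 were CpG-rich. They included NKX2-5 (44.3), a factor of the heart, TBXT (32.2), of early mesoderm and notochord, RUNX3 (18.1), of lymphocytes and sensory neurons, GATA3 (16.4), of T cells, and PAX3 (13.2), of neural crest and muscle. The region of NKX2-5 was 700 bp wide with its middle 2224 bp downstream of the start, at the edge of the window. That of TBXT covered a start, with the canonical one 292 bp away. Of 39 HOX genes, which set position along the body axis, 5 were members (12.8%, 5.60 to 26.7), 24 had no region and none reached 500. The highest were HOXD13 (43.6), HOXD3 (41.5), HOXA5 (27.5) and HOXB2 (20), and of these only the region of HOXD3 covered a start. That was an alternative start, with the canonical one 20232 bp from the region.

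The remaining cell types gave 1 or 2 members each, or none. Mesenchymal genes gave LUM (19.4), a proteoglycan of the matrix, and COL1A2 (17.6), a chain of collagen I. Endothelial genes gave ERG (31.6), a factor of the endothelium, over an alternative start with the canonical one 162668 bp away. Leukocyte genes gave 2 members of 25, among them FCER1G (20.2), a signalling chain of Fc receptors. Muscle genes gave MYH6 (32.4) and TNNI3 (20.6), a heart myosin and a heart troponin. Hepatocyte, keratinocyte and male germ cell genes gave no member of 19, 20 and 20. Of these, 8, 17 and 14 had no region, so most keratinocyte and germ cell markers had no open region near their start.

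**Figure D5:**
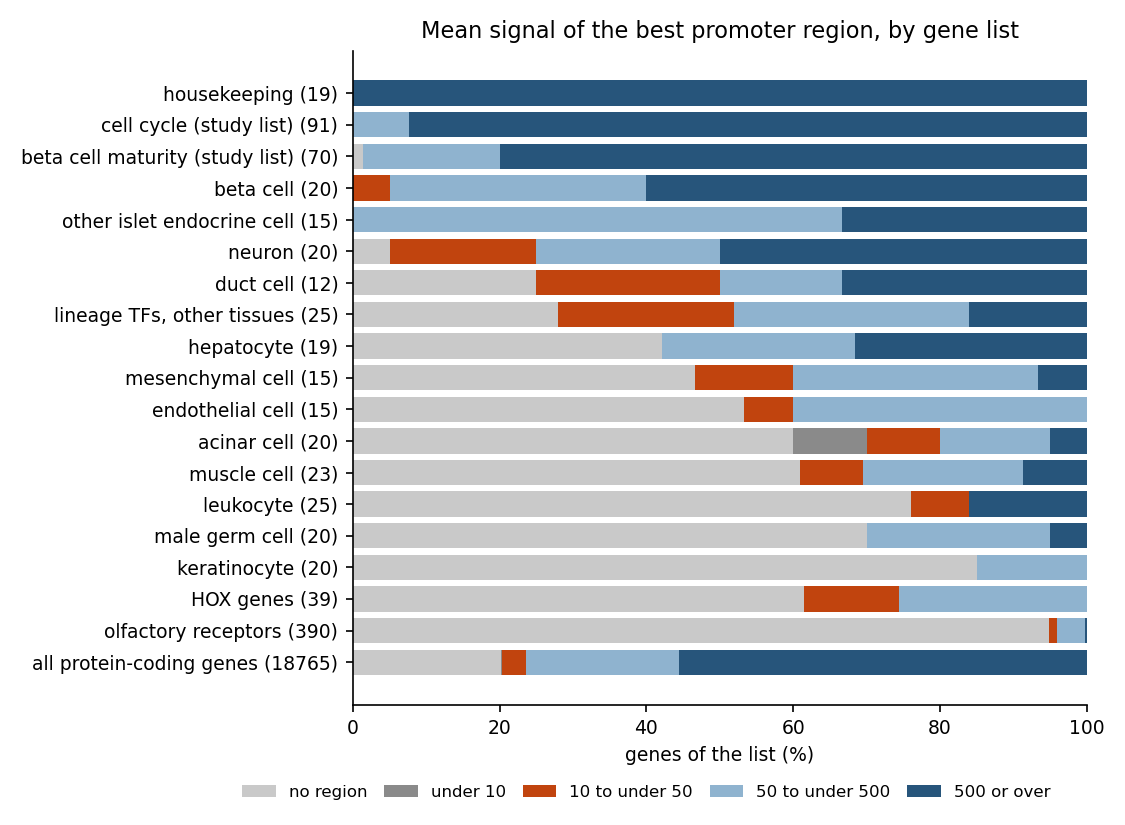
Genes of each list (horizontal axis, %) by the mean signal of their best promoter region, with the number of genes found in brackets. Housekeeping and cell cycle genes are nearly all in the strongest class, the weakly open class is widest in duct cell genes, lineage factors and neuronal genes, and keratinocyte genes and olfactory receptors mostly have no region.

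The study follows genes of senescence and interferon responses. Among its lists used here, only the E2F targets had an interval that left out the 3.18% of all genes. None of 91 genes of its cell cycle list, none of 190 E2F targets and none of 70 genes of its beta cell maturity list was weakly open. An upper limit of the Wilson interval of 4.05%, 1.98% and 5.20% goes with these counts of 0. A further list of 45 genes was picked with the study in mind and does not hold every gene that the study names. Its 1 member was CGAS, the sensor of cytosolic DNA, with 45.2 in a region 683 bp wide. The middle of this region lay 613 bp downstream of the start, in coding sequence (chr6:73451227-73451910). Of 338 interferon-stimulated genes, 14 were members (4.14%, 2.48 to 6.83), near the 3.18% of all genes, and 9 of the 14 were CpG-rich. The highest were MICB (49.8), a ligand of natural killer cells, SLC15A3 (45.7), a peptide transporter, CGAS and MYOF (43.6), a membrane repair protein. The type I interferon list gave 3 of 97 (3.09%, 1.06 to 8.70). These were the interferon genes IFNA16 (48.2) and IFNA17 (35.5), each in a CpG-poor region over the start, and SP100 (32), a nuclear body protein. The region of SP100 covered no start, with its middle 1056 bp downstream of an alternative one.

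The secretory list of senescence (SASP) gave 3 of 76 genes. MMP9 (49.7) and MMP14 (30.9), matrix proteases, had regions 1760 and 850 bp downstream of a start, and IL13 (46.2), a cytokine of T cells, had one at -1913 bp. None of these covered a coding start, though those of MMP14 and IL13 covered the start of another GENCODE transcript. A further 25 genes of that list had no region. The study's insulin secretion list gave 3 of 193 (1.55%, 0.530 to 4.47). GJA1 (49.6), a gap junction protein, and NOS2 (37.3), the inducible nitric oxide synthase, were both CpG-rich. Their regions covered alternative starts, with the canonical start 1470 and 6596 bp away. CD38 (31.2), which cleaves NAD, had a region with its middle 477 bp downstream of the start.

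Among gene families, the share ranged widely. Solute carriers gave 18 of 359 (5.01%, 3.19 to 7.79), with SLC30A2 (49.1), SLC15A3 (45.7), SLC5A7 (45.7) and SLC38A8 (45.3) highest. Cytochromes P450, enzymes of drug and steroid metabolism, gave 5 of 56 (8.93%, 3.87 to 19.3), led by CYP2D6 (39.2), CYP4A11 (35.9), CYP4X1 (31.6) and CYP27C1 (24.5). Clustered protocadherins gave PCDHA10 (49.4), PCDHA13 (23.5) and PCDHGB2 (15.8) of 53. Interleukins and their receptors gave IL13, IL11RA (41.6), IL20 (32.9) and IL18BP (13.8) of 78. Keratin-associated proteins gave KRTAP4-3 (41.6), KRTAP3-2 (38.8), KRTAP10-2 (26.8) and KRTAP2-4 (17.8) of 94. Olfactory receptors gave only OR51A7 (29.4), OR52M1 (26.0), OR5H15 (19.4) and OR2H2 (15.1) of 390, since 370 had no region.

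Several families had few members or none. Of 500 ZNF zinc finger genes 4 were members (0.800%, 0.312 to 2.04), namely ZNF85 (42.2), ZNF385C (23.1), ZNF385A (20.8) and ZNF512B (14.0). No member was found among 91 cytosolic and 78 mitochondrial ribosomal protein genes, 37 NADH dehydrogenase subunits and 39 proteasome subunits. Upper limits of the Wilson interval of 4.05%, 4.69%, 9.41% and 8.97% go with these counts of 0, all above the 3.18% of all genes. There was also no member among 33 serpins and 40 chemokines, of which 60.6% and 65% had no region. Smaller families gave 1 or 2 members each, among them KRT7 of 55 keratins, TAS2R8 (43.7) of 24 bitter taste receptors, DEFB127 (32) of 40 beta defensins, S100P (27.8) of 20 S100 proteins, TMPRSS3 (40.7) and PRSS33 (38.9) of 55 proteases, TEX48 (45.2) and TEX35 (30.7) of 75 spermatogenesis genes, and CLEC18A (19.6) and CLEC18C (14.2) of 42 lectins. Both regions of the last pair have a near-identical second copy by the measure above.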

How the data were processed

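ATAC-seq of 3 non-senescent and 3 senescent EndoC-βH3 libraries was used, with groups from the sample labels. According to the study's methods and the submitters' notes, the authors used Trim Galore for trimming and Bowtie2 for alignment against hg38. Mitochondrial and duplicate reads were dropped, read ends were offset for Tn5, MACS2 found the peaks, and the authors counted reads under all peaks merged and normalised them in DESeq2. Tool versions and the treatment of multiply placed reads are not given in the sources used here. Counting of fragments under merged peaks lets wide regions gather more signal.

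The authors' deposited signal is the mean of read counts divided by size factors over all 6 libraries. The other columns hold the authors' own comparison of the groups (fold change, standard error, statistic, p-value and adjusted p-value) and were not used. There is no column for a single library, so depth per library, replicate error and a test between groups could not be had. Columns of other samples numbered 0.

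Regions were matched to GENCODE 44 and hg38 (0 regions past a chromosome end) with Python 3.11.15, pandas 2.3.3, pysam 0.24.0 and bedtools 2.31.1, and copies were sought with minimap2 2.31. Coordinates are as in the deposited table, whose counting from 0 or 1 is not stated. Distances run from the middle of a region. Shares carry 95% Wilson intervals (statsmodels 0.14.6) and differences Newcombe intervals, without p-values. The assignment rule and intervals were tested on simulated data. The members, gene lists and motifs were chosen with earlier results of these data known. Some lists are the study's own. Up to 4 members with the highest mean signal were named for each list, with any member of the list of 45 genes picked with the study in mind. The 2 regions on each side of each bound and the 5 widest and 5 densest members were named too. Values of a few genes that this rule names are not reported here, though the genes are included in the counts. GATA3, PAX3, the members with copies and the unlisted beta cell values were named after values were seen. Alternatives changed the window, start sites, bounds, CpG limits, sequence windows and chromosomes, and, added after seeing the data, width, copies and CpG class.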

Additional observations from a re-analysis of the deposited data

How the results depend on the processing

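No paired analysis was possible because only a pooled mean was used, with no value for a single library, so no replicate could be left out and neither DESeq2 nor edgeR could be run. The number of weakly open promoters was 584. It was 516 and 467 with windows of 1 and 0.5 kb, 595 with canonical start sites, 690 with the bounds on signal per 500 bp, 596 without the demand on every gene and 604 with X and Y. Bounds of 5 to under 25 gave 237 regions and bounds of 20 to under 100 gave 1052. The difference in start sites covered lay between -54.8 and -11.3 points and the CpG difference between -42.5 and -3.49 points. The latter was the only value of these 2 whose interval held 0, in regions under 500 bp wide (-3.49 points, -10.1 to 3.07). The markers of other cell types in the class numbered 22, and 16 and 20 with a 1 kb window and canonical starts. Motifs with an interval off 0 were 10, and 11 with the window on the start site. Among CpG-rich regions covering a start there were 4, and 1 in those under 500 bp wide, with far fewer regions compared. With the window on the start, the difference turned to -0.163 points for the REST motif, -0.0270 for MAF and 1.17 for the homeodomain motif. In CpG-rich regions over a start it turned to -0.601 for FOXA, -0.123 for HNF1, -0.374 for NEUROD and -2.92 for MAF. The cause was not tested. The CCAAT difference over all regions was -1.34 points (-4.94 to 2.54) with the window on the start, so the lower share there rests on the window at the middle or on CpG-rich promoters. With no depth per library, a weak region cannot be told from one present in only some libraries.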

Other observations

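A few genes of broad use stood in the class. They were picked after their values were seen and follow no rule. YAP1, the coactivator of the Hippo pathway, had a mean signal of 35.0 in a region of 530 bp over its canonical start, with a ratio of observed to expected CpG of 1.13. HPS1, a gene of lysosome-related organelles, had 21.3 in 296 bp over its canonical start, with a ratio of 0.936. At B4GALT2 and ZEB2, with 45.9 and 44.7, the canonical start lay 628 and 3165 bp outside the region. PLEKHM2 and ZRANB1, with 40.2 and 31.3, had regions 449 and 1370 bp away from the canonical start. CpG-rich members over their canonical start also included developmental homeodomain genes, with EN2 at 48.5, LHX2 at 48.1 and RAX at 45.5.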
